A study of Mus musculus with 8 samples.

Results

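ETn and MusD elements are mouse endogenous retroviruses, and the small RNAs annotated to them were taken from a list of small RNAs of mouse testis. They were chosen by name: every distinct sequence whose annotation contains ETn or MusD, or begins with RLTRETN. The rule found 38466 of 6246223 distinct sequences, and 32642 of these were 24 to 33 nt long, the length of piRNAs. They carried 5 names. MMETn-int (11153 sequences of piRNA length), ETnERV2-int (10906), ETnERV-int (3596) and ETnERV3-int (2066) are internal regions, the part of an element between its LTRs, and RLTRETN_Mm (4921) is the long terminal repeat (LTR) that closes it at either end. No name contained MusD, so MusD sequences are described here only as far as the ETnERV names hold them.

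The labels described 8 libraries of total testis RNA, 1 in each group: homozygous and heterozygous tdrd1 mutants at 18.5 days after conception, and the same 2 genotypes for tdrd6 at postnatal ages of 18 days, 25 days and 6 weeks. Strain and number of animals were not given. The deposited list pools the libraries. It holds no read number, and 0 of its 3 columns are tied to a library, so homozygous could not be compared with heterozygous testes, nor one age with another. Every value below counts distinct sequences, each once, and none measures how abundant an RNA is. The depth is unknown and there are no replicates. Intervals in parentheses after a share are exact (Clopper-Pearson) 95% intervals that cover counting error only, and no test was run, since overlapping sequences are not independent.

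An LTR retrotransposon is transcribed from its 5′ LTR into an RNA that serves as messenger and as template for a new copy. Reverse transcription is primed by a host tRNA at a primer binding site just inside that LTR. MusD encodes its own proteins, whereas ETn has lost coding sequence and depends on proteins of MusD to move. In male germ cells, piRNAs guide Piwi proteins to such RNAs. A Piwi protein cuts its target opposite bases 10 and 11 of the piRNA, and the cut RNA becomes the 5′ end of a new piRNA. A pair made in this way overlaps by 10 nt at the 5′ ends, and a guide that begins with T (U in the RNA) gives a partner with A at position 10. Tdrd1 and Tdrd6 encode Tudor-domain proteins that bind Piwi proteins.

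Pairs of this form were present in the list for internal regions and for LTRs. The pairs shown are those whose 5′ ends carried the most distinct sequences, among 643 internal and 206 LTR pairs found by exact match on noncoding GENCODE M21 transcripts of the mouse genome GRCm38. Capitals mark the first 10 bases, which pair with those of the partner. Each RNA has further matches elsewhere, and the position given is that of 1 match. The first 3 pairs are internal.
Internal pair 1, sense to Gm38312, chr1:89097804-89097832, plus strand: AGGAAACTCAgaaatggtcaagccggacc
Internal pair 1, antisense to Gm38312, chr1:89097784-89097813, minus strand: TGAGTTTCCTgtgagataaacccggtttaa
Internal pair 2, sense to 2810429I04Rik, chr13:3488171-3488200, plus strand: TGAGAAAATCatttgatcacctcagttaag
Internal pair 2, antisense to 2810429I04Rik, chr13:3488151-3488180, minus strand: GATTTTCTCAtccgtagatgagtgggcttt
Internal pair 3, sense to Gm37697, chr2:14345834-14345860, plus strand: TGGTAAACTGtatctggctaagagtga
Internal pair 3, antisense to Gm37697, chr2:14345815-14345843, minus strand: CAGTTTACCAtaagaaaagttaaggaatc

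The antisense RNA of internal pair 1 begins with T, which lies opposite the A at position 10 of the sense RNA. Its 5′ end was shared by 19 distinct sequences, and that of the sense RNA by 13. In internal pair 2 both 5′ ends carried 12 sequences, and the RNAs mapped to 344 (sense) and 288 (antisense) positions. In internal pair 3 the sense RNA mapped to 7 positions and its 5′ end carried 17 sequences, while the antisense partner mapped to 103 positions with 7 sequences.

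The next 3 pairs are from the LTR. Both Wiz matches lie on a transcript annotated as retaining an intron of Wiz, a zinc finger gene.
LTR pair 1, sense to Wiz, chr17:32376293-32376322, minus strand: TGGTCCAGTAgaaaggtgcacgggtgtggc
LTR pair 1, antisense to Wiz, chr17:32376313-32376342, plus strand: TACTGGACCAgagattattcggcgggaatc
LTR pair 2, sense to 4930509G22Rik, chr16:11191717-11191746, plus strand: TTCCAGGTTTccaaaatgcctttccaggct
LTR pair 2, antisense to 4930509G22Rik, chr16:11191697-11191726, minus strand: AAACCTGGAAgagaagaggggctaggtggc
LTR pair 3, sense to Wiz, chr17:32376232-32376261, minus strand: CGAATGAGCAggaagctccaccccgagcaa
LTR pair 3, antisense to Wiz, chr17:32376252-32376281, plus strand: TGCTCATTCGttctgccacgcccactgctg

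In LTR pair 1, both RNAs begin with T and both have A at position 10. Their 5′ ends carried 24 and 15 sequences and they mapped to 54 and 522 positions. LTR pair 2 mapped to 1029 and 632 positions, and LTR pair 3 to 297 and 717 positions. These LTR RNAs thus lie in bases that many copies share.

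The members made up 0.668% (0.661 to 0.676%) of the 4883266 distinct piRNA-length sequences in the list. Internal regions gave 27721 of them, or 84.9%, and the LTR gave 4921, or 15.1%. MMETn-int and ETnERV2-int gave nearly equal shares, 34.2% and 33.4%. They differed in how many copies their RNAs match. An MMETn-int RNA mapped to a median of 39 positions and an ETnERV2-int RNA to a median of 3. The medians were 14 for ETnERV-int and 7 for both ETnERV3-int and RLTRETN_Mm.

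Most of the RNAs matched more than 1 genome position. The share mapped to 1 position was 28.9% (28.3 to 29.4%) for internal regions and 29.3% (28.1 to 30.6%) for the LTR, against 81.4% of all piRNA-length sequences. Internal and LTR shares thus differed by less than their counting error, although the internal names ranged widely, with 17.3% for MMETn-int, 26.04% for ETnERV3-int, 31.8% for ETnERV-int and 40.3% for ETnERV2-int. In other retrotransposons the share mapped to 1 position was 29.4% for MMERVK10C internal, 35.9% for RLTR10 LTR, 24.9% for IAP LTR, 13.6% for IAPEz internal and 13.3% for young L1 RNAs. The upper tail was longer in the LTR, where 24.2% of RNAs mapped to 100 or more positions, against 16.4% of internal RNAs.

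LTR RNAs were slightly shorter. The mean length was 27.86 nt for internal and 27.54 nt for LTR RNAs, the most frequent length was 28 nt and 27 nt, and 34.6% of internal against 27.9% of LTR RNAs were 29 to 31 nt long. Among the internal names, MMETn-int had the most RNAs of 29 to 31 nt (39.2%) and ETnERV3-int the fewest (25.1%). RNAs annotated to mRNAs had 20.7% at these lengths and a most frequent length of 26 nt.

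**Figure D1:**
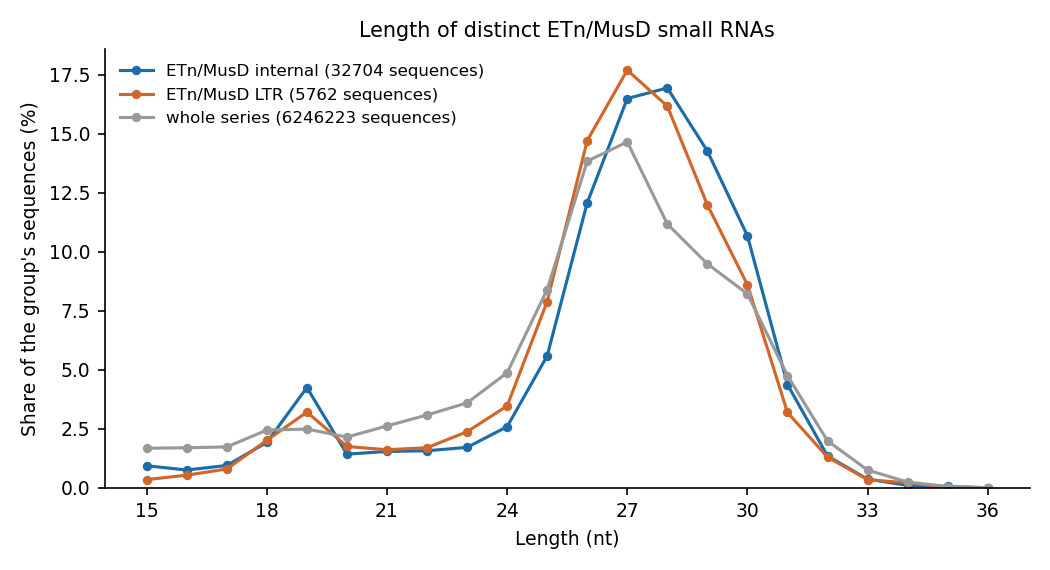
Length of the distinct sequences in nt (horizontal axis) against their share of the group in percent (vertical axis), for ETn/MusD internal regions, the ETn/MusD LTR and the whole series. The internal curve peaks at 28 nt, the LTR curve at 27 nt, and both have a second, small peak at 19 nt (1390 internal and 185 LTR sequences).

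Most of the piRNA-length RNAs began with T, and A was over-represented at position 10. T came first in 73.05% (72.5 to 73.6%) of internal and 67.4% (66.1 to 68.7%) of LTR RNAs. The share was 71.2% over all piRNA-length sequences and 78.4% of those annotated to mRNAs, so T first did not set the members apart. A stood at position 10 in 42.6% (42.0 to 43.2%) of internal and 46.1% (44.7 to 47.5%) of LTR RNAs, against 30.7% of all piRNA-length sequences and 25.8% of those annotated to mRNAs. The base at position 10 stood out from its neighbours: A was at position 9 in 26.8% and at position 11 in 29.8% of internal RNAs, and in 23.6% and 27.9% of LTR RNAs. Position 10 of the LTR RNAs was also the poorest in T of their first 20 positions, at 12.4%.

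The LTR was richer in A at position 10 than the internal regions, the reverse of the order in the 2 other retrovirus families compared. With each 5′ end counted once the difference was smaller, with 40.9% (40.2 to 41.6%) of internal and 42.7% (40.9 to 44.4%) of LTR 5′ ends, whose intervals meet. The 2 other families were not counted in this way. IAP, an active mouse retrovirus, had 45.7% in IAPEz internal and 40.3% in IAP LTR RNAs. MMERVK10C, another mouse family, had 42.4% in internal and 39.3% in RLTR10 LTR RNAs. For T first, LTR RNAs were lower than internal ones in all 3 families: ETn/MusD had 73.05% and 67.4%, IAP 61.3% and 59.7%, and MMERVK10C with RLTR10 70.95% and 66.7%. Within the internal regions the 2 bases ran in opposite order. MMETn-int had the lowest share of T first (70.3%) and the highest of A at position 10 (45.8%), whereas ETnERV3-int had 76.3% and 36.9%. In A at position 10 MMETn-int lay close to the LTR (46.1%), and the ETnERV names lay below both. With base composition differing between names, these shares are descriptions of the sequences and their cause was not tested.

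**Figure D2:**
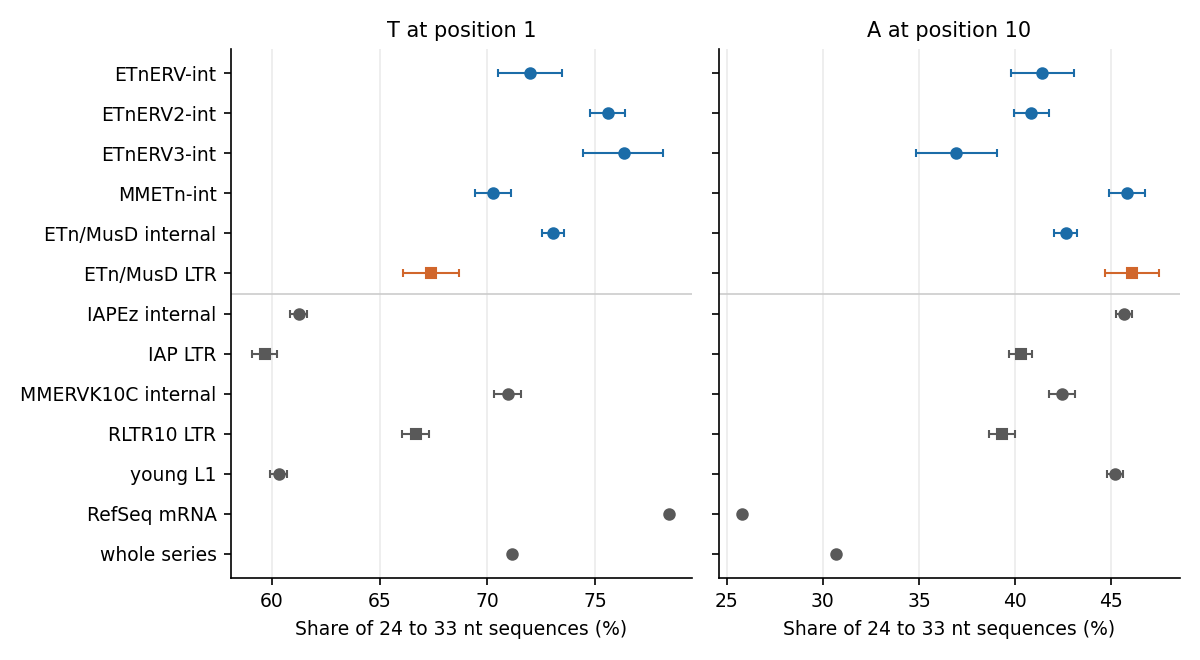
Share of 24 to 33 nt sequences with T at position 1 (left) and A at position 10 (right), in percent, with exact 95% intervals as bars; circles are internal or other sequences, squares are LTRs, and grey marks the lists used for comparison. The ETn/MusD LTR has more A at position 10 than its internal regions (46.1% and 42.6%), while the squares of IAP and RLTR10 lie left of the circles above them.

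An A at position 10 was more frequent where T did not come first. Among RNAs without T first it was found in 61.5% (60.4 to 62.6%) of internal and 57.8% (55.3 to 60.2%) of LTR RNAs, and among those with T first in 35.6% and 40.4%. mRNA sequences had 27.96% and 25.2%, and all piRNA-length sequences 35.8% and 28.6%. MMERVK10C internal RNAs had 58.2% and 35.9%, IAPEz internal 56.8% and 38.6%, RLTR10 LTR 53.4% and 32.3% and young L1 52.5% and 40.4%. IAP LTR RNAs had the same order, so this order did not set the members apart. The share of members with A at position 10 also moved with length. For internal RNAs it was 28.1% at 25 nt, 39.0% at 27 nt and 51.0% at 29 nt, while T first was most frequent at 26 nt (77.6%) and lower at 29 nt (71.4%). For LTR RNAs A at position 10 was lowest, among lengths of 24 to 32 nt, at 26 nt (38.1%), where T first was highest (74.1%), and reached 52.5% at 28 nt. From 26 to 28 nt, longer RNAs of both kinds thus had more A at position 10 and less T at their first base.

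Partners on the opposite strand were sought by sequence, since the list gives no strand. Sequences with the same first 20 nt were counted as a single 5′ end, and 10 bases were compared at each overlap from 10 to 20 nt. Of 20061 internal 5′ ends, 31.8% (31.1 to 32.4%) had a partner at 10 nt. At the overlaps of 11 to 20 nt the mean was 16.5% ± 0.931 (SD over 10 overlaps) and the highest was 18.3%. Of 3142 LTR 5′ ends, 44.6% (42.8 to 46.4%) had a partner at 10 nt, against a mean of 27.5% ± 1.81 and a highest value of 29.7%. The ratio of 10 nt to the other overlaps was 1.92 for internal regions and 1.62 for the LTR. LTR 5′ ends thus found a partner more often at every overlap, and the excess at 10 nt was smaller relative to the other overlaps. The LTR ratio lay within the range of its ratios with lists of other families, given below.

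**Figure D3:**
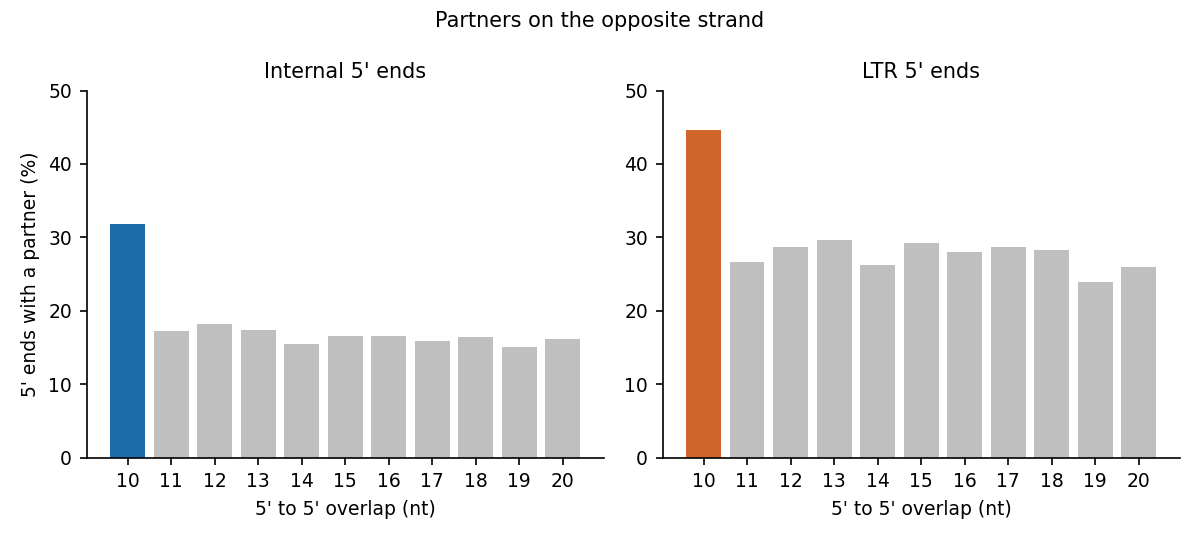
Share of 5′ ends with a partner on the opposite strand, in percent, by the overlap of the 5′ ends in nt, for internal (left) and LTR (right) 5′ ends; the bar at 10 nt is coloured. It reaches 31.8% for internal and 44.6% for LTR 5′ ends, and no other overlap exceeds 18.3% (internal) or 29.7% (LTR).

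The excess at 10 nt was larger for 5′ ends with A at position 10 than for those without it. With A, 48.3% of internal and 61.7% of LTR 5′ ends had a partner at 10 nt, against means of 16.7% and 27.7% at the other overlaps. Without A, 20.4% (19.6 to 21.1%) of internal and 31.9% (29.7 to 34.1%) of LTR 5′ ends had one, against means of 16.4% and 27.4%. A 10-nt overlap places that A opposite the first base of the partner, which is T in most RNAs, so the search itself favours A there. Internal 5′ ends with T first had a ratio of 2.002 and those without it 1.77. LTR 5′ ends had 1.81 with T first and 1.36 without.

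Each internal name showed the peak. With partners from all members, the share at 10 nt and the ratio were 41.2% and 1.82 for MMETn-int, 36.6% and 1.94 for ETnERV-int, 27.3% and 2.12 for ETnERV2-int and 17.8% and 1.94 for ETnERV3-int. Under their own name alone, 35.7% of MMETn-int 5′ ends, 22.2% of ETnERV-int, 17.9% of ETnERV2-int and 11.9% of ETnERV3-int found a partner at 10 nt. The ratios were then 1.87, 2.15, 2.3 and 2.075 in that order. A smaller list finds fewer partners at every overlap, so the lower shares do not measure how often partners carried another name. Restricted to RNAs that mapped to 1 position, 9.95% of internal and 16.8% of LTR 5′ ends had a partner at 10 nt, with means of 3.99% and 7.10% at the other overlaps. The ratios were then 2.49 (2.32 to 2.67) and 2.37 (2.09 to 2.67), higher than over all map numbers. The intervals of these ratios take the mean at the other overlaps as fixed. They overlapped, so the smaller relative excess of the LTR was not resolved for these RNAs.

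Internal regions and the LTR differ in sequence, and the search between them found few partners. Of internal 5′ ends, 0.374% had a 10-nt partner in the LTR (mean at the other overlaps 0.277%), and 3.02% of LTR 5′ ends had one in an internal region (1.83%). With only 10 bases compared, such shares depend on the number of 5′ ends searched, 3142 in the LTR and 20061 in internal regions. They do not measure pairing between the 2 parts. Partners in other families were few as well. For internal 5′ ends the share at 10 nt was 4.11% in IAPEz internal RNAs (mean at other overlaps 3.03%), 3.26% in MMERVK10C internal RNAs (2.04%) and 4.47% in young L1 RNAs (3.11%). The ratios were 1.36, 1.595 and 1.44 in that order, below the 1.93 of internal with internal. For LTR 5′ ends the ratio was 1.68 in young L1, 1.57 in MMERVK10C internal and 1.38 in IAPEz internal RNAs. It was 1.34 in RLTR10 LTR, 1.23 in IAP LTR and 1.65 in ETn/MusD internal RNAs. LTR with LTR had 1.63, so ratios near it also arose with lists of other sequence.

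Other families, searched within their own lists, had a peak at 10 nt as well. Beside ratios of 1.93 for ETn/MusD internal with internal and 1.63 for LTR with LTR, the ratio was 1.84 for MMERVK10C internal, 1.48 for RLTR10 LTR, 1.36 for young L1, 1.31 for IAP LTR and 1.27 for IAPEz internal. Their shares at the other overlaps were high, with means of 48.4% for IAPEz internal and 39.1% for young L1, against 16.3% for ETn/MusD internal with internal. A dense list finds more partners at every overlap, so the ratios describe each list and do not rank the families.

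A second class of short RNAs lay beside these pairs. Sequences of 19 nt were more numerous than their neighbours: internal regions had 630 of 18 nt, 1390 of 19 nt and 467 of 20 nt, and the LTR had 116, 185 and 101. The number at 19 nt was 2.53 times the mean of 18 and 20 nt for internal regions and 1.71 times for the LTR, against 1.08 times in the whole list and 0.902 times for mRNA sequences. MMETn-int had 2.85 times and ETnERV-int 2.85 times, ETnERV2-int 2.16 times and ETnERV3-int 1.66 times. Young L1 (2.51 times) and IAPEz internal (2.14 times) showed the same length.

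Such a 19-nt RNA is known as a by-product of ping-pong cleavage: it is cut from a target just upstream of the new piRNA 5′ end. Its 3′ end then lies opposite base 11 of the guide. The 2 sets below are those whose piRNA-length 5′ ends carried the most sequences, among 222 such 19-nt RNAs on noncoding transcripts. In each set the downstream RNA begins at the base after the 19-nt RNA ends, and the opposite RNA overlaps the downstream RNA by the 10 bases in capitals.
Set 1, 19 nt RNA, chr3:127298579-127298597, minus strand: actcccgccgaataatctc
Set 1, downstream RNA, chr3:127298549-127298578, minus strand: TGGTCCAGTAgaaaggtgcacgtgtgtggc
Set 1, opposite RNA, chr3:127298569-127298595, plus strand: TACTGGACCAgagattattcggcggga
Set 2, 19 nt RNA, chr13:3488152-3488170, plus strand: aagcccactcatctacgga
Set 2, downstream RNA, chr13:3488171-3488200, plus strand: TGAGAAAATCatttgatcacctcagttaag
Set 2, opposite RNA, chr13:3488151-3488180, minus strand: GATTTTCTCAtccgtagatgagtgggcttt

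In set 1, the downstream and opposite RNAs have the 5′ ends of LTR pair 1, matched here on another transcript, Gm42970. In set 2, the 19-nt RNA was annotated as ETnERV-int and mapped to 323 positions, and the other RNAs are internal pair 2.

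Across all 1390 internal 19-nt RNAs, 39.5% (36.9 to 42.1%) ended opposite base 11 of a piRNA-length member on the other strand, compared over 14 bases. At the 10 offsets that leave 0 to 9 guide bases before the 3′ end in place of 10, the mean was 21.4% ± 1.71 (SD) and the highest 22.95%. Among RNAs mapped to 1 position, with guides limited in the same way, the share was 2.60% (0.712 to 6.52%) and its ratio to the other offsets 1.91 (0.522 to 4.78), an interval that spans 1, so the step was not detectable there. RNAs one base longer or shorter had no step as large as that of all 19-nt RNAs. The share was 17.8% of 20-nt RNAs (mean at other offsets 14.9%, highest 17.6%) and 13.7% of 18-nt RNAs (13.2%, highest 14.8%). The ratio to the other offsets was 1.845 at 19 nt, and smaller but above 1 at 20 nt (1.196), 21 nt (1.188), 22 nt (1.19) and 23 nt (1.24). In MMETn-int, 28.4% (22.6 to 34.8%) of 222 RNAs of 20 nt ended there (mean 20.1%, highest 25.2%). For the LTR the step was less clear, with 49.2% (41.8 to 56.6%) of 185 RNAs of 19 nt, a mean of 38.3% and a highest value of 46.5%, which lies inside the interval.

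**Figure D4:**
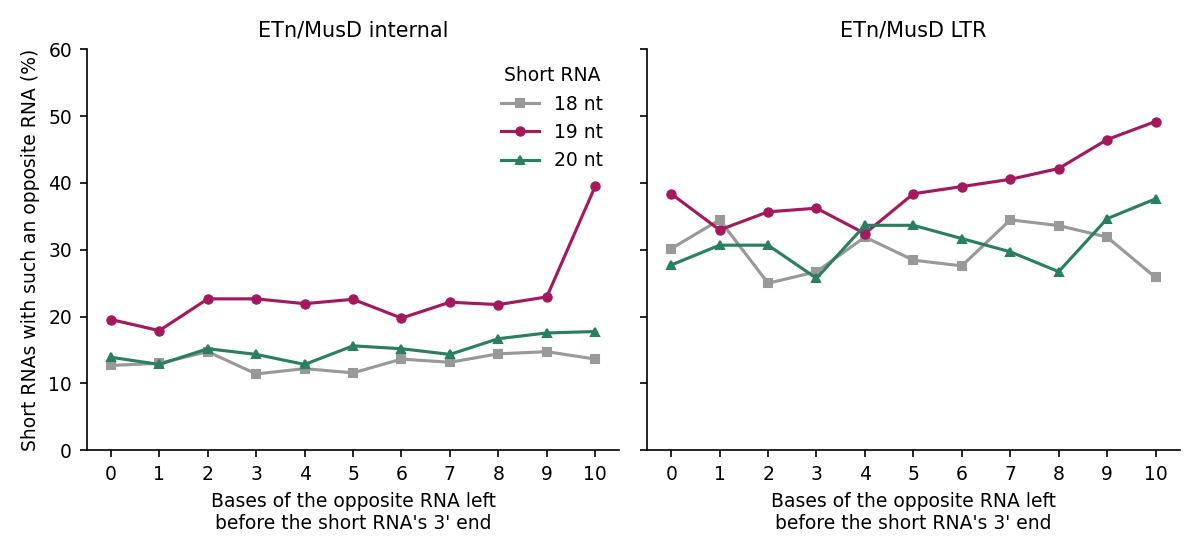
Share of short RNAs (percent) that match a piRNA-length member of the other strand, by how many bases of that member are left before the short RNA's 3′ end, for RNAs of 18, 19 and 20 nt from internal regions (left) and the LTR (right). The 19-nt internal curve steps to 39.5% at 10 bases, where the 18-nt and 20-nt curves stay at 13.7% and 17.8%.

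By name, the 19-nt RNAs at this offset made up 47.0% of 702 in MMETn-int (mean at other offsets 25.8%), 43.1% of 232 in ETnERV-int (22.9%) and 30.2% of 388 in ETnERV2-int (15.5%). ETnERV3-int had 2 of 68 RNAs, or 2.94% (0.358 to 10.2%), with a mean of 4.56% at other offsets, so no step was seen at that number. Most 19-nt RNAs did not begin like a listed piRNA. T came first in 37.8% of internal 19-nt RNAs, and 26.8% had the same first 19 bases as a piRNA-length member. In other families 71.1% of IAPEz internal 19-nt RNAs (mean at other offsets 52.9%), 34.1% of MMERVK10C internal (19.2%) and 56.5% of young L1 (41.2%) ended at this offset.

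To give the RNAs a strand, copies with an LTR at both ends were sought on GENCODE transcripts, since no genome sequence was used. There were 3, all lying antisense to their gene within a single exon that the annotation gives as 3′ untranslated region. The exon of D10Wsu102e, a protein-coding gene of chromosome 10, held a copy of 7418 bases at chr10:83459955-83474502 and a copy of 5533 bases at chr10:83399572-83405104 (GRCm38). The span of the 7418-base copy also holds an insertion of 7130 bases that was left out, and 14849 of the 16040 listed sequences that match it exactly are annotated as IAPEz-int. Cmah, whose enzyme makes a sialic acid, held a copy of 5621 bases at chr13:24471110-24476730. The LTRs of a copy were 96.9%, 97.6% and 94.9% identical in these 3, in that order. Sense and antisense below are relative to the element, and were set by alignment to 5 transcripts that carry a primer binding site for lysine tRNA after an LTR (Spaar, Gm43078, Gm43041, Olfr1388 and Gm19792).

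Of the 32642 piRNA-length members, 6913 (21.2%) matched a copy exactly and 18464 (56.6%) with up to 3 mismatches. No RNA matched both strands. Up to 3 mismatches placed 79.1% of MMETn-int, 64.9% of ETnERV-int, 60.5% of RLTRETN_Mm and 39.7% of ETnERV2-int RNAs, but only 12 (0.581%) of ETnERV3-int, which is thus left out of what follows.

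Both strands gave many piRNA-length RNAs, and the balance depended on the placement. Antisense RNAs were 59.5% (58.3 to 60.7%) of exact matches but 48.6% (47.9 to 49.3%) with up to 3 mismatches, so no strand can be called the more frequent. In exact matches the balance also moved with the map number. Of 411 exact matches that mapped to 1 position, 408 (99.3%) were antisense to the element, which is the sense strand of the D10Wsu102e and Cmah transcripts, whereas among RNAs with 100 or more positions the exact share was 50.9%. With up to 3 mismatches the 2766 RNAs mapped to 1 position were 53.4% (51.5 to 55.3%) antisense. At this placement antisense RNAs were 47.6% of internal and 53.7% of LTR RNAs.

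On the LTR, antisense RNAs had less T at the first base and more A at position 10 than sense RNAs. With up to 3 mismatches, T came first in 53.5% (51.0 to 55.9%) of antisense and 68.7% (66.2 to 71.2%) of sense LTR RNAs, and A stood at position 10 in 55.4% (52.9 to 57.8%) and 41.8% (39.2 to 44.5%). Exact matches gave the same order: T first in 44.3% of antisense and 68.1% of sense RNAs, A at position 10 in 52.6% and 36.5%. With each 5′ end counted once, T came first in 48.7% of 842 antisense and 63.8% of 737 sense 5′ ends, and A at position 10 in 51.5% and 39.1%. For the LTR RNAs mapped to 1 position, with up to 3 mismatches, the gap in T first was smaller and its intervals overlapped, at 64.5% (57.9 to 70.7%) of 228 antisense and 68.9% (61.9 to 75.3%) of 196 sense RNAs. A at position 10 was then 59.7% (53.0 to 66.1%) and 44.9% (37.8 to 52.2%). On internal regions the strands were closer, with T first in 68.9% of antisense and 69.5% of sense RNAs and A at position 10 in 48.0% and 44.7%. The base composition of an LTR differs between its strands, and its part in these shares was not tested.

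Along the copies, RNAs placed with up to 3 mismatches were densest on the LTRs. The 5′ and 3′ LTRs of the 7418-base copy had 4255 and 3445 placed RNAs per kb, against 895 to 1510 in its internal region, divided into 3 equal stretches. The 5533-base copy had 3795 and 4386 per kb on its LTRs and 756 to 1661 in its internal stretches. On the Cmah copy the difference was smaller, with 1140 and 1958 per kb on the LTRs and 582 to 1040 in the internal stretches. An RNA that matches both LTRs was counted in each, and LTR sequence is also carried by solitary LTRs, so density does not measure output per copy. The middle stretch was the sparsest of the internal region in all 3 copies.

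The strand balance changed along the internal region. Antisense RNAs were 44.0% (42.3 to 45.7%), 39.3% (36.9 to 41.6%) and 34.5% (32.01 to 36.96%) of those in the first internal stretch of the 7418-base, 5533-base and Cmah copies. In the middle stretch they were 47.9%, 54.5% and 62.6%, and in the last stretch 52.0%, 50.5% and 52.6%. The first stretch thus held more sense than antisense RNAs in each copy at this placement, although some RNAs were placed on more than 1 copy. Exact matches, of which 58.8% of internal RNAs were antisense, were not counted by stretch.

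**Figure D5:**
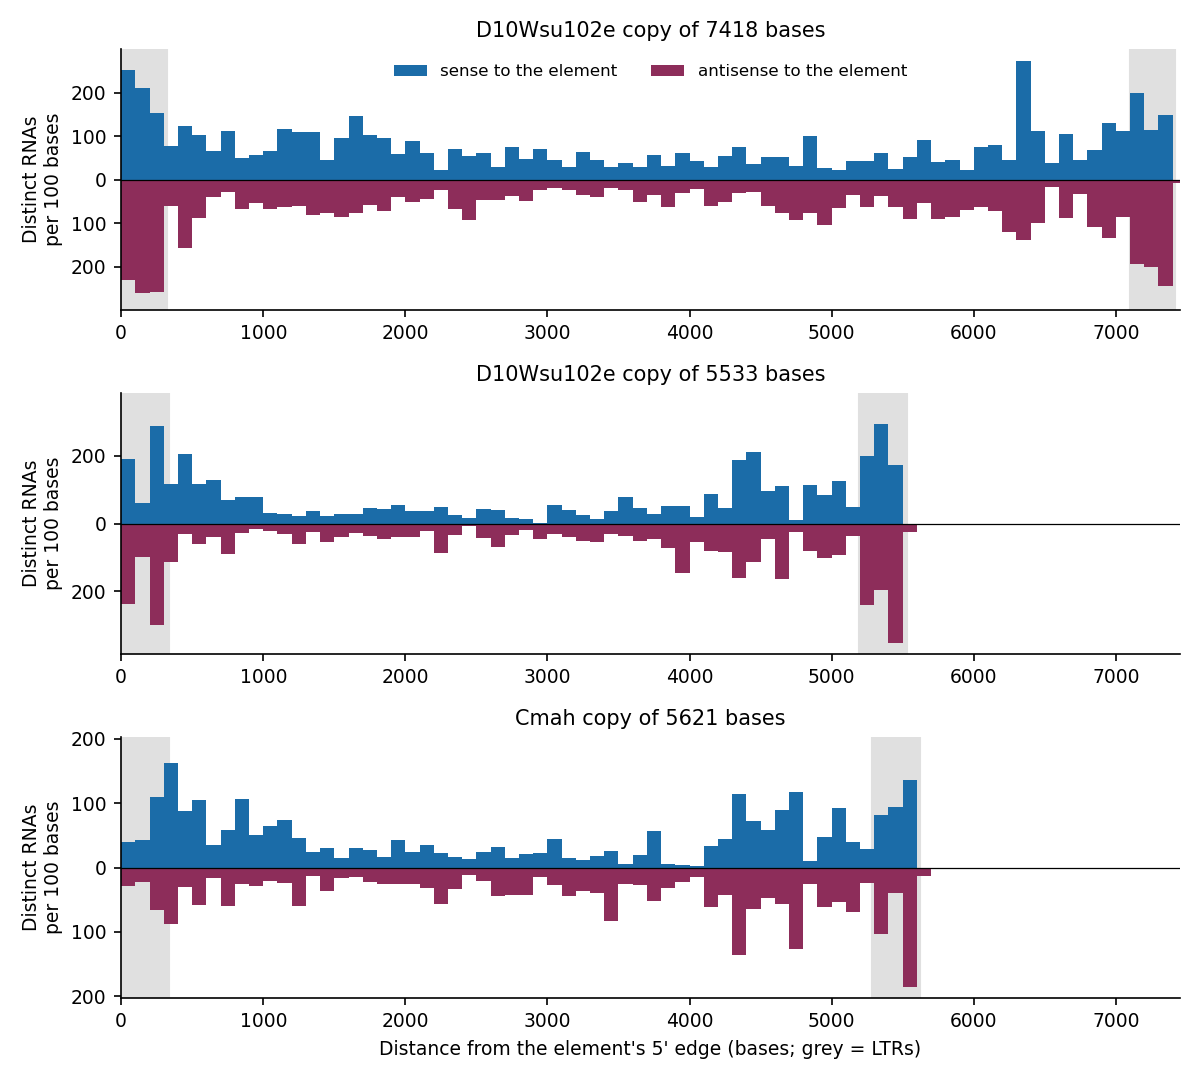
Distinct piRNA-length RNAs placed with up to 3 mismatches on 3 copies, by the distance of their 5′ ends from the 5′ edge of the element in bases, in bins of 100 bases; sense RNAs are drawn above and antisense RNAs below the line, and grey marks the LTRs. RNAs of both strands lie along the whole of each copy, and on the LTRs of the 2 D10Wsu102e copies they reach 3445 to 4386 per kb.

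Placed on the copies, opposite 5′ ends again overlapped most often by 10 nt. Of 2003 sense 5′ ends placed exactly, 38.5% (36.4 to 40.7%) had an antisense 5′ end at 10 nt. At the other overlaps from 1 to 25 nt the mean was 22.4% and the highest 24.2%. With up to 3 mismatches the shares were 44.2%, 29.9% and 32.4%. These RNAs were also in the search by sequence, so the values describe the same peak in another way.

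RNAs with a single map position could be traced to a gene only in part. Of the 9448 members that mapped to 1 position, 926 matched transcripts, each of 1 gene, and 57 genes were hit. D10Wsu102e had 631 of these (68.1%), of which 629 ran in the sense of the gene and 600 were internal. The others had fewer: Gm10683 on chromosome 8 had 54, Olfr943, an olfactory receptor gene, 35, Cmah 32 and Gm17167 26. The single exon of D10Wsu102e that holds its copies spans chr10:83365704-83488505. How much repeat sequence each transcript holds was not counted, so these numbers do not rank the genes as sources. Most of the RNAs of Gm17167 (21 of 26) ran antisense to the gene, whereas all 54 of Gm10683 and 31 of 32 of Cmah ran in its sense. The other 8522 members matched no transcript, and spliced transcripts hold no introns or intergenic copies.

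The primer binding site was covered mainly by short RNAs of 1 strand. The site is complementary to the 3′ end of lysine tRNA, shown here with the CCA end in capitals, because an RNA of these bases can be either a tRNA fragment or an antisense RNA of the element.
tRNA-Lys 3′ end: gtccctgttcgggcgCCA
Primer binding site: tggcgcccgaacagggac

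Of the members, 41 held the last 15 bases of the tRNA end, 36 of them 15 to 23 nt long and 5 of piRNA length, and 21 ended exactly at the edge of the site. The sense strand of the site was held by 3 members, all of piRNA length. The 18-nt sequence mapped to 62 positions. For the RNAs of 15 to 23 nt that ended at the edge (19), a tRNA source and an ETn source cannot be told apart in this list. The RNAs that did not end there held further bases after the CCA end of the tRNA. Their source was not tested.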

How the data were processed

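Small RNA was sequenced from mouse testes, size selected to 19 to 33 nt and ligated to linkers at both ends, per the labels' protocols. The authors deposited 1 table for the series. Per the file headers, it gives for each distinct sequence the number of genome positions to which it mapped (the map number) and an annotation. The aligner, the genome build, the repeat annotation and any read minimum are not given in the sources used here. The members and the lists compared with them were chosen with earlier results of these data known.

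From this table, names, lengths (24 to 33 nt as piRNA length), bases and partners were counted with Python 3.11.15. Intervals are at the 95% level, from SciPy 1.17.1. Those of a ratio are the exact limits of the share divided by the mean at the other overlaps or offsets. That mean was taken as fixed, so its own error is not covered. Printed pairs are those with the largest product of sequences per 5′ end. They were limited, after the data had been seen, to noncoding transcripts, to RNAs of at most 30 nt and to chromosomes other than 18.

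No genome sequence was used, so the strand search planned on a genome was run on GENCODE M21 transcripts (GRCm38), a choice made after the data had been seen, like the search for 19-nt RNAs. Copies are direct repeats of at least 300 bases and 90% identity, found with BLAST 2.17.0, that hold LTR matches with internal matches between them. They were oriented by alignment to transcripts with a primer binding site, and members were placed with bwa 0.7.19 at up to 3 mismatches without gaps. Counting and placement were tested on simulated sequences with known answers.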

Additional observations from a re-analysis of the deposited data

How the results depend on the processing

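No paired analysis was possible because no sequence is tied to a library. Of 47 alternative values, 19 stayed inside the counting interval of the value reported. All 15 ratios, reported and alternative, were above 1, but the interval of the 19-nt ratio for RNAs mapped to 1 position (1.91, 0.522 to 4.78) spans 1.

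With lengths of 25 to 32 nt only the share of the whole list moved out of its interval, to 0.694%. With RNAs mapped to 1 position, that share was 0.238%, T first 78.1% for internal and 75.9% for LTR RNAs, A at position 10 38.4% and 41.5%, partners at 10 nt 9.95% and 16.8%, the partner ratio 2.49 and 2.37, the antisense share 99.3%, and the internal 19-nt RNAs at the cleavage offset 2.60%. With each 5′ end counted once, T first was 70.6% and 65.7% and A at position 10 40.9% and 42.7%, where the internal and LTR intervals meet. With 9 bases compared, partners were 37.6% and 49.9% and the ratios 1.63 and 1.51. Without MMETn-int, internal T first was 74.9%, A at position 10 40.5%, partners 23.1%, their ratio 2.11 and the share mapped to 1 position 36.7%.

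The antisense share was 48.6% with up to 3 mismatches, 57.0% for map numbers of 2 or more, and 53.4% with up to 3 mismatches for RNAs mapped to 1 position, so it crossed equality. All 3 copies have both LTRs, so the alternative limited to such copies gives no separate value. The cause of these shifts was not tested. Distinct sequences without read numbers limit every value, since depth and abundance are unknown.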
